A study of Rosa rugosa with 9 samples.

Results

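Beta-amyrin synthase (Rru02G057740) and beta-amyrin 28-monooxygenase (Rru04G000360) were followed in the young roots of an ornamental rose, Rosa rugosa 'Zizhi'. These 2 genes were picked by ID from the 47983 genes of the deposited table, as abundant genes for successive steps of triterpene synthesis. Both were among the 25260 genes that passed the filter on low counts. They were chosen with values of these libraries in view, so their levels and fold changes are given as a description, with a standard error (SE) and no p-value. The table names the synthase after its best Swiss-Prot match in the birch Betula platyphylla and the monooxygenase after its best match in grapevine, Vitis vinifera. Activity of the rose enzymes was not measured here.

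Polyadenylated RNA was sequenced from 3 groups of 3 libraries. HA1 plants received 0.0368 g of humic acid (HA) with 0.0552 g of NH4H2PO4, which is 60% of the full phosphorus dose. HA2 plants received 0.0552 g of humic acid with 0.0368 g of NH4H2PO4, which is 40% of that dose. CK plants, the control, received 0 g of humic acid and 0.092 g of NH4H2PO4, the full dose. All were grown in sand for 37 weeks with 200 ml of Hoagland's solution per pot each week. Ammonium fell with the phosphate salt, so humic acid, phosphorus and ammonium cannot be told apart. The labels do not say that libraries of a group came from separate plants, and p-values then speak only of how these samples varied.

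Triterpenes are made from the same linear precursor as sterols. The mevalonate pathway in the cytosol supplies isoprene units, which are joined to squalene and then oxidised to oxidosqualene. Beta-amyrin synthase folds oxidosqualene into the ring system of beta-amyrin, whereas cycloartenol synthase turns it towards sterols and lupeol synthase towards lupeol. The 28-monooxygenase, a cytochrome P450, oxidises a methyl group of beta-amyrin in steps to the acid of oleanolic acid. Such triterpene acids and their sugar conjugates are common in the rose family.

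Total counts were 33847262 to 42988605 per library. On the first principal component, HA2 replicate 3 lay at -45.8, inside the range of the CK libraries (-131 to -42.3) and away from the other HA2 libraries (39.7 and 66.3). Values without it are therefore given where they differ. The 8 root marker genes, such as Casparian strip membrane protein and SHORT-ROOT, were present in every group, with summed levels of 119 to 126 CPM (counts scaled to library size) in HA1, 118 to 179 CPM in HA2 and 79.5 to 132 CPM in CK. Green tissue markers summed to 78.2 to 112 CPM in HA1, 49.9 to 145 CPM in HA2 and 108 to 222 CPM in CK. Of these 51 green tissue genes, 34 stayed under 1 FPKM (a level per transcript length and library size) in every library. The highest of the 51, ribulose bisphosphate carboxylase small chain Rru04G014250, had 58.8 to 383 FPKM. The highest root marker, Casparian strip membrane protein 1 Rru03G023310, had 46.3 to 118 FPKM. Markers of mycorrhizal roots, 9 genes, summed to 27.6 to 93.1 CPM in HA1, 10.3 to 55.1 CPM in HA2 and at most 5.35 CPM in CK. These sums, like the members, were higher in both groups with humic acid. With 3 libraries a group, their order within a group is given only as a description. The highest sums of HA1 and HA2 fell in HA1 replicate 1 and HA2 replicate 3, where both members were lowest for their group. Among these markers, low affinity inorganic phosphate transporter 4 (Rru01G053270) had 19.9, 4.04 and 0.171 FPKM in HA1. In HA2 it had 10.1, 0.337 and 10.2 FPKM, and it was listed at 0 in 2 of the 3 CK libraries. Acyltransferase RAM2 (Rru06G015850) had 4.02, 2.79 and 1.95 FPKM in HA1. Its HA2 levels, 1.44, 1.25 and 1.09 FPKM, were near those of CK, at 1.16, 1.11 and 1.06 FPKM. Other RAM2 genes differed from this one. Rru02G075040 had 0.513, 0.0816 and 3.28 FPKM in HA2 and 0.0199, 0 and 0 FPKM in CK. Rru04G055040 had 0.502, 0.117 and 5.04 FPKM in HA2 and 0.0285, 0 and 0.0271 FPKM in CK. Rru04G006750 stayed at or under 0.0372 FPKM in every library. The part of these other cells in the results was not tested.

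Beta-amyrin synthase had 1963, 2543 and 1986 FPKM in HA1 replicates 1 to 3. In HA2 it had 2057, 2067 and 1721 FPKM. In CK it had 761, 1474 and 462 FPKM. Every library with humic acid lay above every CK library, and the nearest pair was HA2 replicate 3 and CK replicate 2. The group means were 2164 ± 329 FPKM in HA1, 1948 ± 197 FPKM in HA2 and 899 ± 520 FPKM in CK (SD, n = 3 each). Among all genes of a library ordered by FPKM, the synthase took places 16, 8 and 19 in HA1, 15, 14 and 22 in HA2, and 70, 29 and 156 in CK. In HA1 replicate 2 it had more counts than any other gene, 284526. In bulk RNA, more cells of one type and more RNA per cell cannot be told apart.

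The 28-monooxygenase had 2337, 3012 and 2587 FPKM in HA1 replicates 1 to 3. HA2 libraries gave 2872, 2765 and 2247 FPKM. CK libraries gave 1199, 1643 and 966 FPKM. Here too all 6 libraries with humic acid lay above all 3 CK libraries. Means were 2645 ± 341 FPKM in HA1, 2628 ± 335 FPKM in HA2 and 1269 ± 344 FPKM in CK (SD, n = 3 each). Its places among all genes by FPKM were 11, 5 and 11 in HA1, 5, 4 and 10 in HA2, and 32, 19 and 50 in CK. In both genes CK replicate 2 was the highest and CK replicate 3 the lowest library of the control.

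**Figure D1:**
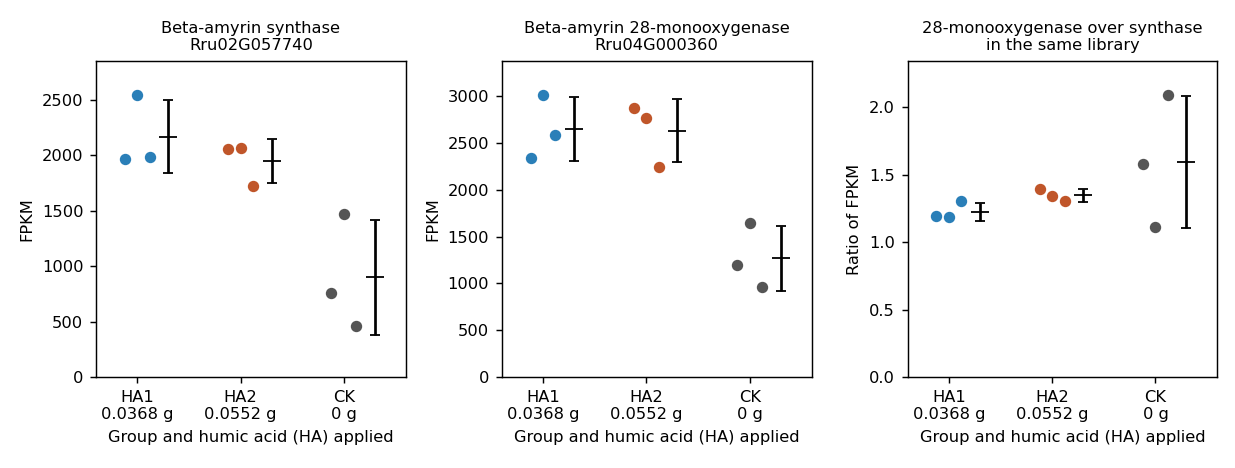
FPKM of the synthase (left), FPKM of the 28-monooxygenase (middle) and their ratio in the same library (right), for HA1, HA2 and CK. Points are libraries and bars are mean ± SD of 3; all HA1 and HA2 libraries lie above all CK libraries for both genes, while the ratio spreads most in CK, at 1.11 to 2.09.

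In the fit to counts, HA1 exceeded CK by a log2 fold change of 1.52 ± 0.46 (SE), or 2.88-fold, for the synthase. For the 28-monooxygenase the log2 fold change of HA1 over CK was 1.34 ± 0.34 (SE), or 2.54-fold. The lowest HA1 library stood at 1.33 times the highest CK library for the synthase and at 1.42 times for the monooxygenase, in FPKM. Groups that do not overlap in CPM, with HA1 higher, were found for 22.7% of all tested genes. HA1 against CK passed an adjusted p of 0.05 (edgeR, quasi-likelihood) for 21.2% of tested genes, 10.9% higher and 10.3% lower, while 38.4% had an unadjusted p under 0.05 and DESeq2 called 31.4%. The members were chosen for this pattern, so nothing is read from their place within these shares.

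HA2 against CK gave log2 fold changes of 1.35 ± 0.46 (SE) for the synthase and 1.31 ± 0.34 (SE) for the monooxygenase, or 2.55-fold and 2.48-fold. The lowest HA2 library stood at 1.17 times the highest CK library for the synthase and at 1.37 times for the monooxygenase, in FPKM. Of all tested genes, 11% had every HA2 library above every CK library, and nothing is read from the members being among them. HA1 and HA2 were set against the same 3 CK libraries, so the likeness of the fold changes is not independent. Without HA2 replicate 3 the log2 fold changes of HA2 over CK were 1.45 for the synthase and 1.42 for the monooxygenase.

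HA2 and HA1 overlapped for both genes. The log2 fold change of HA2 over HA1 was -0.17 ± 0.45 (SE) for the synthase and -0.03 ± 0.33 (SE) for the monooxygenase, both smaller than their SE. Non-overlap of these groups held for 10.1% of tested genes with HA2 higher and 14.1% with HA2 lower. By group mean the FPKM order was HA1, HA2, CK for both members, and the first 2 of that order did not differ beyond their spread. Without HA2 replicate 3 the order of those 2 turned round for the monooxygenase, with means of 2819 FPKM in HA2 and 2645 FPKM in HA1 and a log2 fold change of 0.08. For the synthase HA2 then averaged 2062 FPKM, still under HA1. The authors' deposited table, made with DESeq2, gave log2 fold changes of 1.53, 1.36 and -0.15 for the synthase in HA1 over CK, HA2 over CK and HA2 over HA1. For the monooxygenase the authors' deposited table gave 1.35, 1.33 and -0.01.

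A single CK library moved the synthase values most. Without CK replicate 2 the synthase log2 fold change was 2.16 for HA1 over CK and 1.99 for HA2 over CK. Without CK replicate 3 these values were 1.15 and 1.00. The monooxygenase moved less, to 1.63 and 1.60 without CK replicate 2 and to 1.11 and 1.10 without CK replicate 3. With libraries scaled by total counts the median of all genes moved by -0.29 for HA1 over CK and by -0.31 for HA2 over CK. Relative to that median the synthase stood 1.58 and 1.43 higher, against 1.54 and 1.38 with the TMM scaling used throughout.

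The synthase spread most among the CK libraries. Its coefficient of variation in FPKM was 15.2% in HA1, 10.1% in HA2 and 57.8% in CK. In CK that was above the value of 93.7% of 14320 genes, whose median was 20.2%. The monooxygenase had coefficients of 12.9% in HA1, 12.7% in HA2 and 27.1% in CK, the last above 66.6% of genes. With 3 libraries a group these coefficients are themselves imprecise.

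Levels of the members followed each other from library to library. Over the 9 libraries their log2 CPM had a Pearson r of 0.98 and a Spearman rho of 0.917, and r was 0.956 after the group means were removed. These libraries share depth and scaling, so this is a description. An r of this size was not particular to the 2 members. Squalene synthase Rru06G018770, with an r of 0.978 with the synthase, took place 80 among 10238 genes ordered by r. The ratio of monooxygenase to synthase FPKM was 1.19, 1.18 and 1.30 in HA1, 1.40, 1.34 and 1.31 in HA2, and 1.58, 1.11 and 2.09 in CK. The ratios had means of 1.35 ± 0.0460 in HA2 and 1.23 ± 0.0667 in HA1 (SD, n = 3), while the CK ratios spanned both. All HA2 ratios exceeded all HA1 ratios, but the nearest were almost equal, at 1.306 in HA2 replicate 3 and 1.303 in HA1 replicate 3. Nothing is read from that order. The highest ratio came from CK replicate 3, where the synthase was lowest. Together the members took 1.15% to 1.47% of all counts in HA1, 1.04% to 1.29% in HA2 and 0.367% to 0.838% in CK.

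Each member was the most abundant gene of its family in every library. The synthase held 94.2 ± 2.57% of the summed FPKM of 17 oxidosqualene cyclase genes in HA1, 93.3 ± 2.32% in HA2 and 79.1 ± 14.5% in CK (SD, n = 3 each). Its share in CK was lowest, 62.7%, in replicate 3 and highest, 90.2%, in replicate 2. Next in mean level was lupeol synthase Rru04G000380, with 150, 65.5 and 65.9 FPKM in HA1, 29.7, 143 and 106 FPKM in HA2, and 96.6, 124 and 234 FPKM in CK. That gene did not pass the test in HA1 against CK (log2 fold change -0.41, adjusted p = 0.619, edgeR). The synthase stood at 13.1 to 38.9 times the FPKM of this lupeol synthase in HA1, 14.5 to 69.1 times in HA2 and 1.98 to 11.9 times in CK. In HA2 replicate 1 the next cyclase was instead cycloartenol synthase 2 (Rru04G010250), at 35.0 FPKM.

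Of 7 other genes with the same beta-amyrin synthase description, 6 averaged under 1 FPKM over the 9 libraries. The highest, Rru02G059420, averaged 2.22 FPKM. Of the 4 that were tested, only Rru02G057670 passed in HA1 against CK (log2 fold change 2.65 ± 0.80 (SE), adjusted p = 0.0456, edgeR), and it stayed at or under 0.368 FPKM in every library. That call held in 2 of 9 fits that each left out 1 library. Cycloartenol synthase, the entry to sterols, was also low next to the member: Rru04G010250 had 13.8, 13.4 and 18.5 FPKM in HA1, 35.0, 25.5 and 9.87 FPKM in HA2, and 18.6, 14.9 and 10.6 FPKM in CK. In HA1 against CK 10.9% of all tested genes were called higher and 10.3% lower. Of the 11 tested cyclase genes other than the member, 1 was called higher and 0 lower. The median log2 fold change of these 11 was 0.00, against -0.02 over all genes.

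The 28-monooxygenase held 71.1% to 74.1% of the summed FPKM of 33 triterpene P450 genes in HA1 libraries, 63.9% to 69.3% in HA2 and 63.1% to 65.2% in CK. All its HA1 shares lay above all HA2 and CK shares. How often shares of other genes part in this way was not counted, so nothing is read from it. Rru05G015520, with the same description, had 466, 635 and 475 FPKM in HA1, 808, 819 and 425 FPKM in HA2, and 261, 368 and 160 FPKM in CK. Rru05G015500 had 253, 441 and 302 FPKM in HA1, 541, 544 and 385 FPKM in HA2, and 209, 298 and 96.9 FPKM in CK. Both were highest in HA2 replicates 1 and 2, unlike the member, which was highest in HA1 replicate 2. Their log2 fold changes of HA1 over CK, 1.27 and 1.00, did not pass the test (adjusted p = 0.0554 and 0.134, edgeR). How reads shared by near copies were counted is not given, so levels of these tandem genes are uncertain.

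Of 23 other genes described as beta-amyrin 28-monooxygenase, 15 were tested, of which 2 rose and 3 fell in HA1 against CK. One that rose was Rru05G031970 (log2 fold change 2.01 ± 0.37 (SE), adjusted p = 0.0128, edgeR), which had 4.48, 3.13 and 3.89 FPKM in HA1 and 1.18, 1.38 and 0.869 FPKM in CK. Of all tested genes 10.9% rose and 10.3% fell in HA1 against CK. In the wider P450 list of 24 tested genes, 2 rose and 6 fell in HA1 against CK. The median log2 fold change of that list was -0.41, against 0.20 in HA2 against CK. Those that fell included 2 genes named cytochrome P450 72A15, Rru05G022690 (-2.14 ± 0.30 (SE), adjusted p = 0.00973, edgeR) and Rru05G022810 (-1.95 ± 0.39 (SE), adjusted p = 0.0151, edgeR). The higher of them reached 56.8 FPKM, in CK replicate 3, where the member had 966 FPKM.

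**Figure D2:**
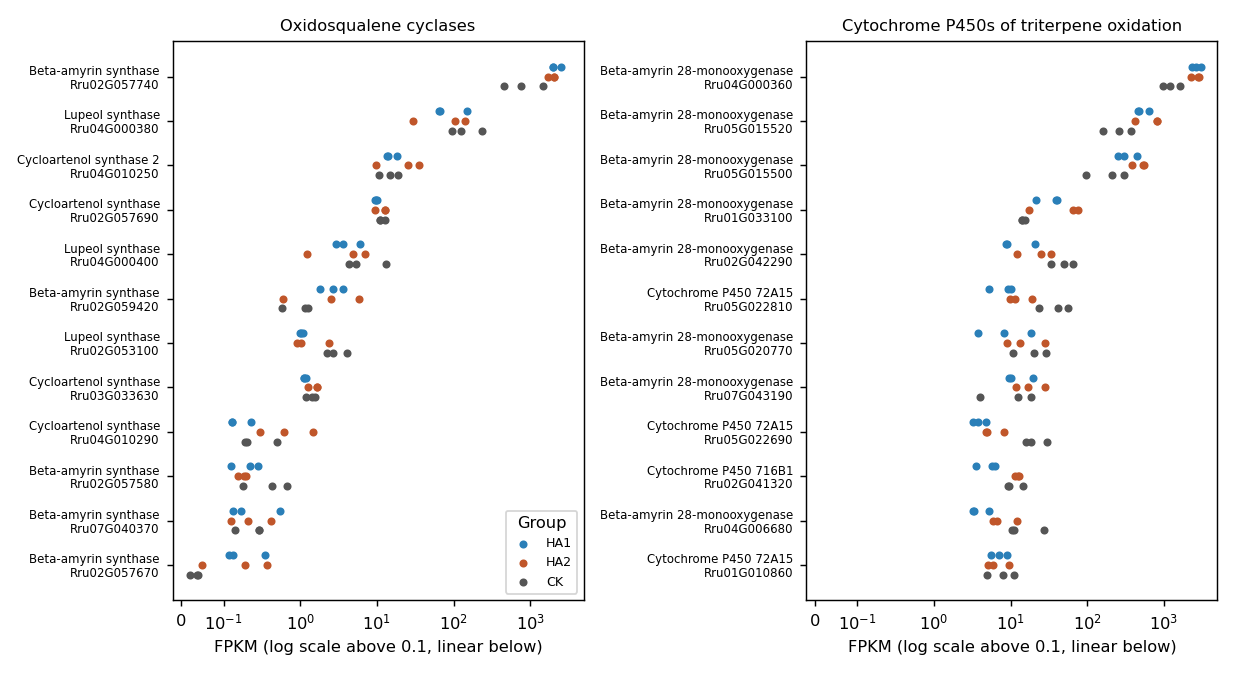
FPKM by library, on a scale that is logarithmic above 0.1 and linear below, for the 12 most abundant oxidosqualene cyclases (left) and the 12 most abundant triterpene P450s (right), in HA1, HA2 and CK. The synthase at 462 to 2543 FPKM and the 28-monooxygenase at 966 to 3012 FPKM top their families, and the next genes are lupeol synthase at 29.7 to 234 FPKM and Rru05G015520 at 160 to 819 FPKM.

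Genes that supply squalene were described from lists of the mevalonate and squalene steps. In HA1 against CK, 6 of 18 tested mevalonate genes rose and 3 fell, beside 10.9% and 10.3% of all tested genes. The median log2 fold change of the mevalonate genes was 0.97. Acetyl-CoA acetyltransferase Rru02G063590, the first step, rose (1.94 ± 0.54 (SE), adjusted p = 0.0370, edgeR). Hydroxymethylglutaryl-CoA synthase Rru07G020220, the next step, rose as well (2.00 ± 0.52 (SE), adjusted p = 0.0300, edgeR). Of 9 fits that each left out 1 library, 3 kept the call of Rru02G063590 and 4 that of Rru07G020220. At HMG-CoA reductase, a main control point of the pathway, 2 of 10 tested genes rose and 3 fell. Rru02G011820 rose by 1.84 ± 0.30 (SE) on the log2 scale and Rru06G033660 fell by 3.55 ± 0.72 (SE), with adjusted p = 0.0103 and 0.0156 (edgeR). Rru06G033710, an abundant reductase gene that also rose (1.18 ± 0.29 (SE), adjusted p = 0.0258, edgeR), had 632, 715 and 649 FPKM in HA1, 713, 668 and 523 FPKM in HA2, and 318, 461 and 294 FPKM in CK. All its libraries with humic acid lay above all its CK libraries, as for both members. This gene was picked after its values were seen, so nothing is read from that likeness. In CPM, 22.7% of all tested genes had every HA1 library above every CK library, and 11% had every HA2 library above them.

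Closer to the members, farnesyl pyrophosphate synthase Rru05G000330, which makes the unit that squalene synthase joins, rose in HA1 (2.82 ± 0.69 (SE), adjusted p = 0.0252, edgeR). Its levels were 812, 756 and 773 FPKM in HA1, 793, 809 and 183 FPKM in HA2, and 90.9, 239 and 59.2 FPKM in CK. The call held in 4 of 9 fits that each left out 1 library. The other tested gene of this step, Rru05G067530 (mean 150 FPKM), did not pass in HA1 against CK (1.41 ± 0.69 (SE), adjusted p = 0.166, edgeR). Squalene synthase Rru06G018770 had 690, 871 and 766 FPKM in HA1, 892, 902 and 368 FPKM in HA2, and 189, 452 and 82.1 FPKM in CK, and its adjusted p of 0.0584 in HA1 against CK missed the threshold (edgeR). Rru05G000330 and Rru06G018770 therefore stood under the members in level, and in HA2 replicate 3 both lay inside the range of CK. Squalene monooxygenase, which makes squalene epoxide for the cyclases, had other counts, and its medians differed in sign between HA1 and HA2. Of 19 tested genes of that step, 0 rose and 3 fell in HA1 against CK, beside 10.9% and 10.3% of all tested genes. The median log2 fold change of these 19 genes was -0.57. DESeq2 also called 0 of them higher, with 5 lower, and 6 had an unadjusted p under 0.05 in edgeR. In HA2 against CK the median was 0.55, with 18 of 19 genes above 0, while 0 passed in edgeR and in DESeq2 and 2 had an unadjusted p under 0.05. In HA2 against HA1 the median was 1.17, and 0 passed in edgeR, 10 had an unadjusted p under 0.05 and DESeq2 called 6 higher. The most abundant, Rru06G004010, had 282, 426 and 260 FPKM in HA1, 483, 641 and 845 FPKM in HA2, and 703, 610 and 278 FPKM in CK, and its log2 CPM had an r of 0.317 with the synthase over the 9 libraries. Other copies ran closer to the synthase, such as Rru06G004060 (r = 0.913) and Rru06G004050 (r = 0.899, mean 315 FPKM), which did not pass the test in HA1 against CK (adjusted p = 0.338 and 0.292, edgeR). As with the P450 copies, reads shared within the many near copies of this step and of HMG-CoA reductase make single genes uncertain.

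HA2 replicate 3, which stood apart on the first component, was set beside the other HA2 libraries. Its FPKM over the mean of HA2 replicates 1 and 2 was 0.835 for the synthase and 0.797 for the 28-monooxygenase. For 11 genes from acetyl-CoA to squalene, leaving out HMG-CoA reductase, the same ratio had a median of 0.348 and a range of 0.192 to 1.11. For the 10 HMG-CoA reductase genes its median was 1.56, and for 15 squalene monooxygenase genes it was 1.40. The ratio comes from 1 library and has no replicate check.

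**Figure D3:**
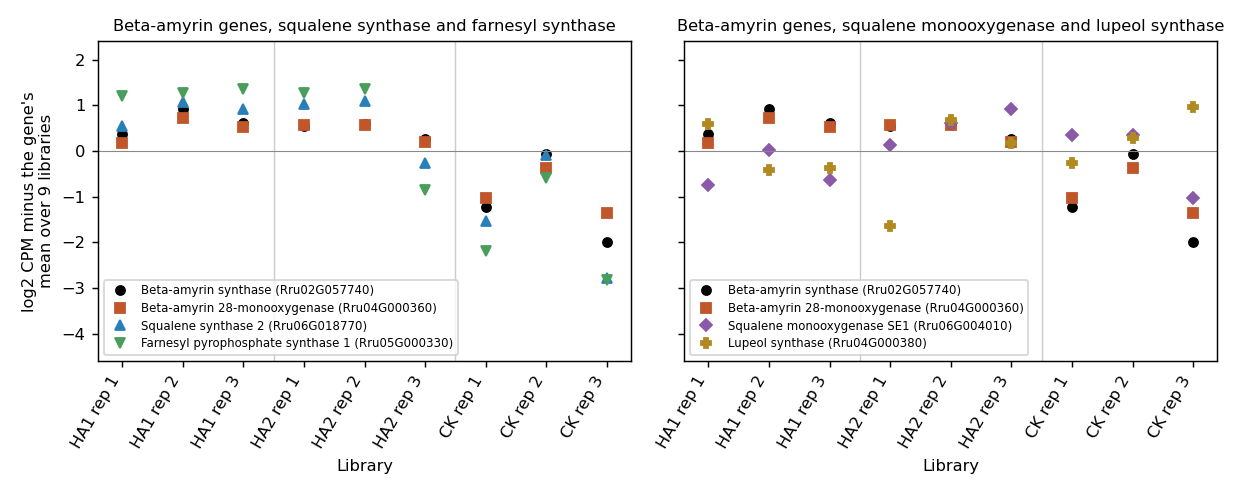
Log2 CPM in each of the 9 libraries, less the gene's mean over them, for both members with squalene synthase and farnesyl pyrophosphate synthase (left) and with squalene monooxygenase Rru06G004010 and lupeol synthase Rru04G000380 (right). In HA2 replicate 3 the members stay above 0 while squalene synthase (368 FPKM) and farnesyl pyrophosphate synthase (183 FPKM) drop below it, and the 2 other genes on the right run less closely with the members (r = 0.317 and -0.40 with the synthase).

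After oxidation, sugars can be added to triterpene acids by UDP-glycosyltransferases. The list of such genes, picked by family name, held 32 tested UDP-glycosyltransferases. In HA1 against CK 9 of these rose and 1 fell, beside 10.9% and 10.3% of all tested genes. Their median log2 fold change was 0.06. The list also held 6 tested genes of cellulose synthase-like protein G, a family that adds sugar to triterpenes in some plants. Of those 6 genes, 0 rose and 2 fell. Over all 38 the median was -0.01, and DESeq2 called 12 higher and 6 lower. The most abundant, UDP-glycosyltransferase 73E1 (Rru07G031130), had 827, 1024 and 1232 FPKM in HA1, 866, 1048 and 1046 FPKM in HA2, and 584, 838 and 702 FPKM in CK. It did not pass the test in HA1 against CK (log2 fold change 0.84, adjusted p = 0.0689, edgeR). UDP-glycosyltransferase 91C1 (Rru02G009180) rose by 2.53 ± 0.39 (SE) on the log2 scale and UDP-glycosyltransferase 74B1 (Rru04G054420) by 4.27 ± 0.73 (SE), with adjusted p = 0.0101 and 0.0112 (edgeR). In Arabidopsis 74B1 acts in glucosinolate synthesis, not on triterpenes. Which gene of the list acts on a triterpene in rose is not known from the table.

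In HA1 against CK 10.9% of all tested genes rose and 10.3% fell, and the 2 small lists that follow are a description beside those shares. In the sterol branch, which shares oxidosqualene with the members, 0 of 11 tested genes rose and 2 fell in HA1 against CK. DESeq2 likewise called 0 higher and 2 lower, and 3 had an unadjusted p under 0.05 in edgeR. The genes that fell were Delta(24)-sterol reductase Rru04G056360 (-0.74 ± 0.21 (SE), adjusted p = 0.0401, edgeR) and Delta(7)-sterol-C5(6)-desaturase Rru06G046120 (-0.95 ± 0.25 (SE), adjusted p = 0.0299, edgeR). In the plastid MEP pathway, a separate source of isoprene units, 1 of 13 tested genes rose and 2 fell. The synthase and the monooxygenase were each more abundant than any gene of these branches in every library.

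Over the 7 lists without the members, 20 of 137 tested genes (14.6%) rose and 19 (13.9%) fell in HA1 against CK, beside 10.9% and 10.3% of all genes. Their median log2 fold change was -0.09, against -0.02 over all genes. The number of pathway genes called in HA1 against CK changed with the libraries kept. It was 0, 50 and 4 without CK replicates 1, 2 and 3. Without HA1 replicates 1, 2 and 3 it was 8, 6 and 14. Without HA2 replicates 1, 2 and 3 it was 36, 29 and 56. In HA2 against CK 0 of 137 passed (edgeR), 48 had an unadjusted p under 0.05, and DESeq2 called 28 higher and 3 lower. Of all genes tested 1 passed in HA2 against CK, which is 0.00396%, and 0 passed when replicate number was a block. Among all genes 20.7% had an unadjusted p under 0.05 there, and DESeq2 called 9.11%, with 6.65% higher and 2.45% lower. Leaving out HA2 replicate 3 gave 21 higher and 2 lower of these pathway genes, beside 4.7% and 2.41% of all genes, or 7.11% in either direction. In HA2 against HA1 0 of 137 passed, as for 0% of all genes, 36 had an unadjusted p under 0.05, and DESeq2 called 19 higher and 1 lower. Of all genes 16.1% had an unadjusted p under 0.05 in HA2 against HA1, and DESeq2 called 4.09%, with 1.78% higher and 2.31% lower.

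**Figure D4:**
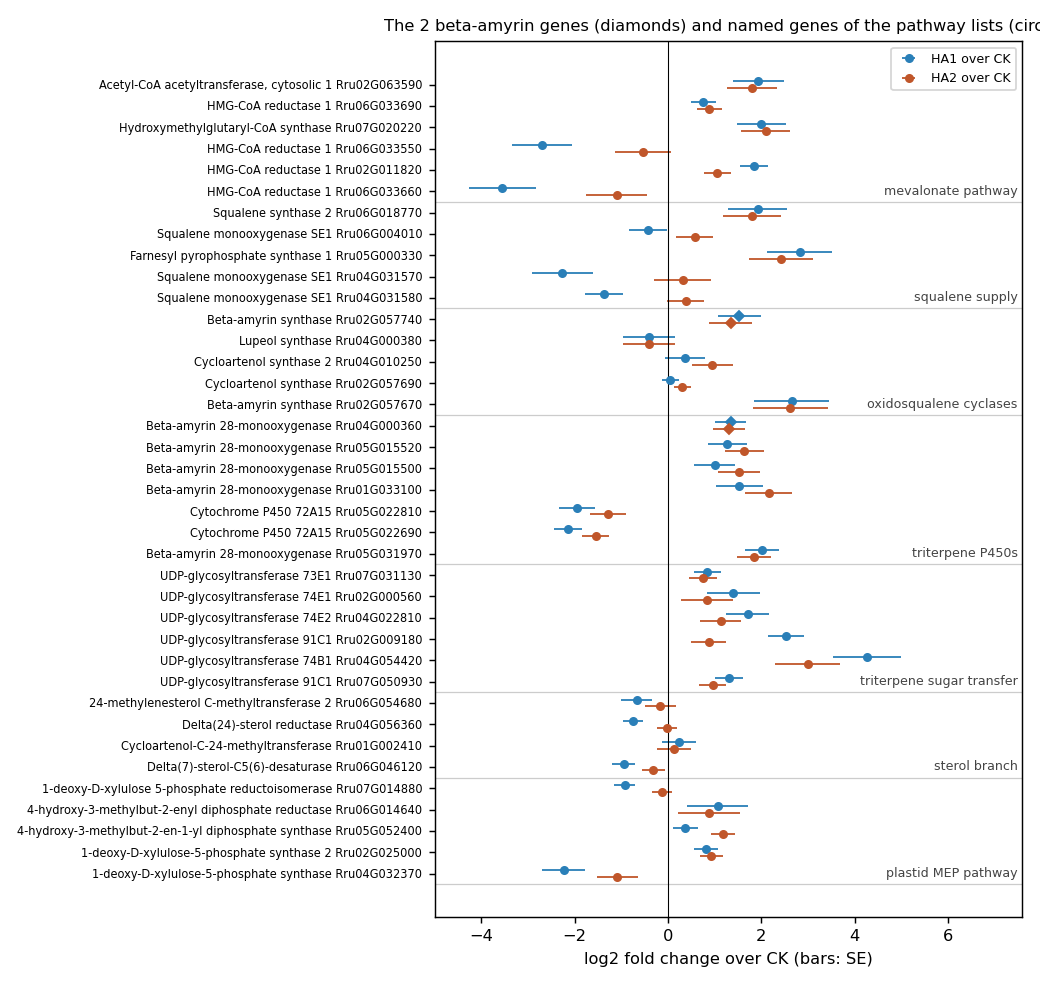
Log2 fold change over CK in HA1 (upper mark) and HA2 (lower mark), with bars of 1 SE, for both members (diamonds) and the named genes of 7 pathway lists (circles). The members lie at 1.31 to 1.52, and squalene synthase and farnesyl pyrophosphate synthase Rru05G000330 have higher values (1.80 to 2.82). Lower values belong to the named cycloartenol synthase genes (0.05 to 0.95) and lupeol synthase Rru04G000380 (-0.41 and -0.40).

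Genes most like each member were sought among 10238 genes with a mean of at least 5 CPM and a description that names a function. Genes without such a description were left out of this order. Likeness was the Pearson r of log2 CPM over the 9 libraries. For the synthase the 5 highest were gamma-glutamylcyclotransferase 2-2 (Rru06G056200, r = 0.996), which breaks down glutathione, aspartokinase 3 (Rru02G080710, 0.995), MLO-like protein 11 (Rru05G027650, 0.994), polyamine oxidase 5 (Rru03G035630, 0.994) and a BAH1-like ubiquitin ligase (Rru03G025560, 0.993). For the 28-monooxygenase they were the kinase and endoribonuclease IRE1a (Rru02G012080, 0.994), HMG-CoA reductase Rru06G033710 (0.994), a sugar phosphate translocator (Rru07G020750, 0.993), stemmadenine O-acetyltransferase (Rru06G055220, 0.992) and aspartic proteinase Asp1 (Rru06G047640, 0.991). The lowest r values were -0.983 for MRL7L (Rru02G000190) with the synthase and -0.981 for filament-like plant protein 7 (Rru06G009960) with the monooxygenase. Squalene synthase took place 80 for the synthase and 127 for the monooxygenase. The names depend on the measure, since by Spearman's rho 0 of the 5 for the synthase and 1 of the 5 for the monooxygenase were again among the 5 highest.

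The IDs of the members lie in different chromosome series of the table. Among the 10 IDs on each side of the synthase stood cycloartenol synthase Rru02G057690, 5 before it, and beta-amyrin synthase genes Rru02G057680 and Rru02G057670, 6 and 7 before it. Both beta-amyrin synthase neighbours stayed at or under 0.368 FPKM, whereas cycloartenol synthase had 9.41 to 12.9 FPKM. Lupeol synthase genes Rru04G000380 and Rru04G000400 stood 2 and 4 places after the 28-monooxygenase. Of 20 neighbours of the synthase 7 were tested and 3 were called in HA1 against CK. Rru02G057670 was called higher, and Rru02G057640 and Rru02G057800 lower. Of 20 neighbours of the monooxygenase 10 were tested and 1 was called, Rru04G000330, which was higher. Since 21.2% of all tested genes were called, nothing is read from these small counts. The members exceeded each of these oxidosqualene cyclase neighbours in every library.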

How the data were processed

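Young roots gave polyadenylated RNA that was sequenced as paired reads on an Illumina NovaSeq, and reads were processed on Biocloud, a commercial platform, per the labels. For each gene and library the deposited table gives a whole-number read count and an FPKM value, per the file headers. The same deposited table holds the authors' DESeq2 log2 fold changes and adjusted p-values, per the file headers, of which only the fold changes of both members are printed. Which aligner, counter, build and strand setting were used is not given in the sources used here. Of 47983 genes, 13758 had 0 counts in every library, and 0 IDs matched the RefSeq gene table, so no sequence or coordinate is printed.

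The members and the gene lists were chosen with earlier results of these data known. Counts were filtered by filterByExpr, scaled by TMM and fitted with edgeR 4.0.16 (R 4.3.3) over all 9 libraries with 1 mean per group. Each pair of groups was compared by a two-sided quasi-likelihood test. The p-values of 25260 genes were adjusted together by Benjamini-Hochberg and called under 0.05. The SE was taken as the size of the log2 fold change divided by the root of F. CPM is TMM-scaled. FPKM was used for levels between genes and in no test. Lists match words in the Swiss-Prot descriptions. Named genes were, per list, the 3 with the highest mean CPM and the 3 with the lowest p among those past the threshold, and for likeness the 5 highest and 2 lowest r (log2 CPM, prior count 2). A few further genes, such as Rru06G033710 and the nearest copies and ID neighbours of the members, were picked after their values were seen.

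Same-numbered HA2 and CK libraries deviated together (r = 0.12, 0.11 and 0.32), so a fit with replicate number as a block was added. This pairing comes from the data and not from the labels. All values of HA2 against CK are from the main fit without a block, unless a block is named. In the other comparisons these r values ran from -0.30 (HA2 and HA1, replicate 3) to 0.07 (HA1 and CK, replicate 2). Alternatives were DESeq2 1.42.0, RLE and total count scaling, other filters, only the 2 groups compared, a replicate block and leaving out each library. Tables were made with Python 3.11.15 and pandas 2.3.3, figures with matplotlib 3.10.9.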

Additional observations from a re-analysis of the deposited data

How the results depend on the processing

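The log2 fold changes of both members over CK kept their sign in each of 19 settings, at 1.15 to 2.16 (HA1) and 1.00 to 1.99 (HA2) for the synthase and 1.07 to 1.63 (HA1) and 1.03 to 1.60 (HA2) for the 28-monooxygenase. HA2 over HA1 stayed at -0.30 to -0.02 for the synthase and -0.17 to 0.09 for the monooxygenase. Counts of calls moved more. In HA1 against CK, DESeq2 called 63 pathway genes, against 39. Leaving out 1 library gave 0 to 56 pathway genes and 0 to 7003 genes of the whole table, against 5355. The 0 came without CK replicate 1, where the adjusted p of the named calls was 0.0506 or more (edgeR). The calls of Rru02G009180, Rru02G011820, Rru04G054420 and Rru05G022690 were lost only there. Other named calls were lost in more of these 9 fits. That of Rru02G057670 was kept in 2 of 9, with an adjusted p of up to 0.145 (edgeR). In HA2 against CK the 1 gene called became 0 with total count scaling, with at least 1 CPM in 3 libraries and with only the 2 groups. DESeq2 gave 2300 genes and 31 pathway genes there. Leaving out 1 library gave 0 to 1834 genes and 0 to 25 pathway genes, the highest of these without HA2 replicate 3 (1834 genes) and without CK replicate 2 (25 pathway genes). In HA2 against HA1, DESeq2 called 1032 genes and 20 pathway genes, and leaving out 1 library gave 0 in edgeR. The causes of these shifts were not tested.

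With replicate number as a block, HA2 against CK had 0 genes called, with all groups or only the 2 groups in the fit. Pathway genes called in HA2 against CK numbered 0 both with and without the block. In HA1 against CK, where the numbers showed no pairing, the block gave 5206 genes and 41 pathway genes. Member log2 fold changes under the block were 1.68 (HA1 over CK) and 1.52 (HA2 over CK) for the synthase and 1.39 and 1.36 for the monooxygenase. Depth does not limit the members, which had at least 48814 counts in every library.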
